A study of Homo sapiens with 35 samples.

Results

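PP242 was compared with its DMSO vehicle in RNA taken from polysomes of SUM149 cells, with 3 arrays of each, out of 35 arrays in 12 groups in all. The arrays were chosen by their titles, and 22384 genes were measured on each. SUM149 is an established human breast cancer line of the inflammatory type that lacks hormone receptors. PP242 occupies the ATP site of the kinase mTOR and so blocks both complexes that the kinase forms. The groups used are PP242 (polysome, 3 arrays), PP242 + IR (polysome, 3), RAD001 (polysome, 3), PP242 (total RNA, 3), IR (polysome, 3), DMSO (polysome, 3) and DMSO (total RNA, 3), all from the same line. RAD001 is everolimus, a rapamycin analog that acts on the first mTOR complex. IR is read as ionizing radiation. The labels give no dose and no duration. Their growth and extraction texts speak of mouse forelimbs, do not match a cell line and were not used. Replicates are titled biological, with no statement that they were separate cultures, so the p-values cover the spread among these samples alone, and that spread may be technical.

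mTOR complex 1 phosphorylates the 4E-BP proteins, which otherwise hold the cap-binding factor eIF4E, and it governs loading of ribosomes onto messages whose first bases are a run of pyrimidines, the TOP messages. These encode ribosomal proteins and several translation factors. mTOR complex 2 phosphorylates AKT, which keeps FOXO transcription factors out of the nucleus. An array of polysome RNA reads messages that carry several ribosomes, so a change there can come from the amount of a message or from its loading.

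The 9 measured epithelial markers, among them KRT5, KRT8, EPCAM and EGFR, had list medians of 13.56 to 13.88 in the PP242 arrays and 13.11 to 13.38 in the DMSO arrays, on the scale of the deposited log2 values. Not all of these markers are specific to basal-like cells, so the medians do not show that identity. The estrogen receptor ESR1 was at 4.31, 4.31 and 4.33 with PP242 and at 4.43, 4.16 and 4.25 with DMSO. Medians of the 9 fibroblast, 9 leukocyte and 10 endothelial markers lay between 3.79 and 4.21 in the PP242 arrays and between 3.72 and 4.23 in the DMSO arrays, although the fibroblast marker FAP read 8.97 to 9.30 with PP242 and 9.41 to 9.48 with DMSO. PP242 replicate 3 stood apart from the other PP242 and DMSO polysome arrays, in a way that replicate 3 of RAD001, PP242 + IR and PP242 total RNA shared in the genes described further on. Over all genes its Pearson correlation with PP242 1 and 2 was 0.986 and 0.984, while PP242 1 and 2 correlated at 0.996 and the DMSO arrays among themselves at 0.995 to 0.996. Results are therefore given with and without PP242 3. In these bulk extracts, fewer cells that hold a message and less of it in each cell cannot be told apart.

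On polysomes 60 of the 22384 genes passed the threshold, a limma p-value adjusted over all genes below 0.05, which is 0.268% of those tested. Of these 12 rose (0.0536% of all genes) and 48 fell (0.214%). Quantile normalization turned this split to 43 higher and 32 lower, and centring each array on its median to 1 higher and 16 lower. The ratio of rises to falls thus depended on the scaling. The spread between arrays was estimated over all 12 groups. With only the 6 compared arrays in the limma fit 0 genes passed (3082 at an unadjusted p below 0.05, against 1890 in the fit of all arrays, smallest adjusted p = 0.0761), while array weights gave 1079. For each of the 60 genes the 3 PP242 arrays lay wholly on one side of the 3 DMSO arrays. That separation was common: 12.2% of all genes lay apart downward and 8.69% upward. The median of all genes was 0.01, and it was -0.083 over the genes with a mean log2 value of at least 5. Changes below are PP242 minus DMSO on the log2 scale, with the standard error of the limma fit after ±, and called means past this threshold.

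**Figure D1:**
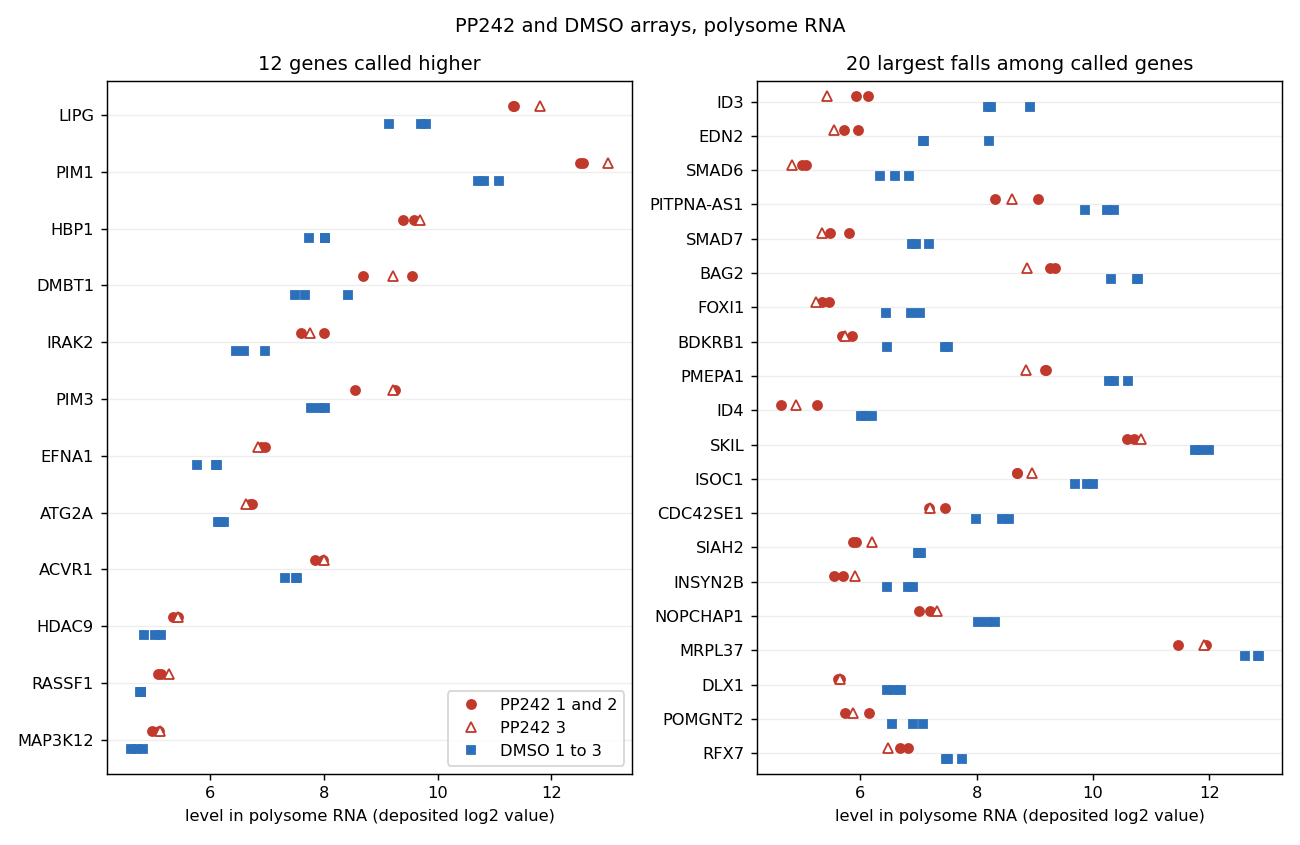
Levels of the 12 genes called higher (left) and of the 20 largest falls among called genes (right), as deposited log2 values on the horizontal axis. Each point is 1 polysome array: circles are PP242 1 and 2, open triangles PP242 3 and squares DMSO 1 to 3. In every row the PP242 points and the DMSO points do not overlap, and the open triangle lies near the circles in most rows.

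The largest fall past the threshold, in ID3, and 5 others were in genes that BMP and TGF-beta receptors induce through SMAD factors. ID3, which binds basic helix-loop-helix factors and keeps them off DNA, was at 5.92, 6.13 and 5.43 in PP242 arrays and at 8.19, 8.25 and 8.91 in DMSO arrays. It was 6.18-fold lower, a change of -2.63 ± 0.40 (limma adjusted p = 0.00312). Its relative ID4 was at 5.26, 4.63 and 4.89 with PP242 and at 6.20, 6.07 and 6.01 with DMSO (-1.17 ± 0.19, adjusted p = 0.0049). ID1 had the largest negative change of all genes but missed the threshold in the fit of all arrays. It read 7.68, 8.63 and 5.60 with PP242 and 11.14, 11.42 and 11.41 with DMSO, or -4.02 ± 0.93 (adjusted p = 0.0635). The PP242 arrays of ID1 spread widely, yet all lay below the DMSO arrays. Without PP242 3 the change of ID1 was -3.17 (adjusted p = 0.326). It passed the threshold (adjusted p = 0.0146) without the 8 arrays of treated cells that stand apart across the series, PP242 3 among them. ID2 was at 5.78, 5.07 and 6.19 with PP242 and at 6.33, 6.28 and 6.63 with DMSO (-0.74 ± 0.34, adjusted p = 0.549).

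Feedback inhibitors of the same receptors were also called lower. SMAD6, which restrains BMP signals, was at 5.07, 4.99 and 4.82 in PP242 arrays and at 6.6, 6.33 and 6.84 in DMSO arrays (-1.64 ± 0.29, adjusted p = 0.00844). SMAD7, which restrains TGF-beta signals, was at 5.48, 5.8 and 5.33 with PP242 and at 6.95, 6.89 and 7.18 with DMSO (-1.47 ± 0.27, adjusted p = 0.0108). PMEPA1 binds receptor-activated SMADs and was at 9.17, 9.20 and 8.84 with PP242 and at 10.61, 10.37 and 10.27 with DMSO (-1.35 ± 0.21, adjusted p = 0.00312). SKIL, a SMAD corepressor, was the tightest of the group, at 10.58, 10.71 and 10.82 with PP242 and at 11.84, 11.75 and 11.99 with DMSO (-1.16 ± 0.16, adjusted p = 0.00107). Both groups of arrays of SKIL spanned less than the gap between them.

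Of the 26 measured genes in the BMP and TGF-beta list 17 lay below 0, 6 fell past the threshold and 0 rose past it. The median of this list was -0.21, against 0.01 over all genes, and -0.24 without PP242 3. For this list and those below, the reference over all 22384 genes is 10552 below 0 and 11832 above 0. Likewise 0.214% of all genes were called lower and 0.0536% higher. The lists were chosen with earlier results of these data known, so their counts are a description and not a test. Below-threshold members included the pseudoreceptor BAMBI (-0.84 ± 0.32) and the receptor-degrading ligase SMURF2 (-1.23 ± 0.42). CCN2, a TGF-beta and YAP target, went the other way, at 8.83, 8.68 and 10.48 with PP242 and at 7.67, 7.76 and 8.08 with DMSO (1.49 ± 0.70, adjusted p = 0.551). The BMP receptor ACVR1, which is outside the list, rose by a small amount, to 7.84, 7.98 and 8.0 with PP242 against 7.31, 7.53 and 7.50 with DMSO (0.50 ± 0.11, adjusted p = 0.0343). Without PP242 3 the list held 5 called genes: ID3 (-2.43), SMAD6 (-1.57), PMEPA1 (-1.23), SKIL (-1.22) and ID4 (-1.15) kept the call and SMAD7 (-1.37, adjusted p = 0.0668) did not. With each of the 6 arrays left out in turn, ID3, PMEPA1 and SKIL were called every time, ID4 (-1.33 to -1.02) except without PP242 2, SMAD6 (-1.77 to -1.51) except without PP242 2, DMSO 1 or DMSO 3, and SMAD7 (-1.60 to -1.37) except without PP242 1 or 3 or DMSO 1 or 3. ACVR1 (0.43 to 0.55) lost the call with any array left out.

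One called gene of this group carried the palindrome GTCTAGAC, a SMAD-binding sequence, in its RefSeq promoter window, which runs from 250 bases before to 50 bases after the annotated start. The stretch before the start of SMAD6 (GRCh38.p14, chr15:66702198-66702235, plus strand) is shown with the palindrome in capitals, which begins at position -12 from the start.
SMAD6: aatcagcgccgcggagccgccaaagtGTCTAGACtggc
On either strand the palindrome was present in 0.201% of 27305 RefSeq promoters of this length and in 1 of the 40 called-lower genes that had a promoter there. A match of letters is a description and not evidence of binding.

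Messages of the translation machinery formed the next group. EIF2S3, the gamma subunit of the factor that brings initiator tRNA to the ribosome, was at 13.55, 13.40 and 13.88 in PP242 arrays and at 14.45, 14.45 and 14.59 in DMSO arrays (-0.89 ± 0.15, adjusted p = 0.00689). The small-subunit protein RPS21 was at 11.86, 11.76 and 12.22 with PP242 and at 12.98, 12.85 and 12.59 with DMSO (-0.86 ± 0.18, adjusted p = 0.028). RPS7 was at 6.56, 6.51 and 6.67 with PP242 and at 7.36, 7.14 and 7.15 with DMSO (-0.64 ± 0.12, adjusted p = 0.0114). In each of these the PP242 3 array was the nearest of the PP242 arrays to the DMSO arrays. The large-subunit protein RPL19 was at 16.13, 16.03 and 16.30 with PP242 and at 16.65, 16.60 and 16.66 with DMSO (-0.48 ± 0.10, adjusted p = 0.03). EEF1D, a subunit of the exchange factor that reloads the elongation factor eEF1A, was at 10.09, 9.99 and 10.20 with PP242 and at 10.51, 10.44 and 10.47 with DMSO (-0.39 ± 0.08, adjusted p = 0.0193).

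The starts of EIF2S3, RPS21, RPS7, RPL19 and a further ribosomal protein gene, RPL18, are shown because a TOP tract is a C at the cap followed by pyrimidines. Each line holds 15 bases before and 15 after the annotated RefSeq start (GRCh38.p14). The capitals mark the stretch of a C and at least 4 further pyrimidines that begins nearest to that start, within 5 bases of it. Such a stretch can be part of a longer run. EIF2S3 lies at chrX:24054941-24054970, RPS21 at chr20:62387088-62387117, RPS7 at chr2:3575245-3575274 and RPL19 at chr17:39200268-39200297, all on the plus strand, and RPL18 at chr19:48619164-48619193 on the minus strand.
EIF2S3: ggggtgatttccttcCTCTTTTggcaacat
RPS21: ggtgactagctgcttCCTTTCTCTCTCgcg
RPS7: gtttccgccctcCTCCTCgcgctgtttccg
RPL19: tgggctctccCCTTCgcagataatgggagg
RPL18: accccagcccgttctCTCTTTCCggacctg
The marked stretch began at the annotated start in EIF2S3, RPS21 and RPL18, at position -3 in RPS7 and at position -5 in RPL19. In all of these genes further pyrimidines lay directly before it, so the whole run began upstream. In RPL19 the stretch ended just before the annotated start, and the bases after that start are not a pyrimidine run. Such a start was found in 38 of 44 ribosomal protein genes and in 12 of 13 other TOP genes with a promoter in the table, and in 21.1% of all 27305 promoters. Among called genes it was found in 11 of 40 lower and in 3 of 12 higher. Over all tested genes with a promoter the median change was -0.01 for the 3318 genes with such a start and 0.01 for the 11907 without.

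As a list, 48 of 49 measured cytosolic ribosomal protein messages lay below 0 on polysomes. Of the 49, 3 fell past the threshold, as did 0.214% of all genes, and 0 rose past it. The list median was -0.53, and 34 of the 49 had all PP242 arrays below all DMSO arrays, against 12.2% of all genes. The exception was RPL41 (0.04 ± 0.25), and RPS19 lay lowest, at 12.57, 12.67 and 13.69 with PP242 and 14.59, 14.10 and 14.12 with DMSO (-1.29 ± 0.40, adjusted p = 0.233). Relative to the DMSO mean of each gene, the list median was -0.61, -0.74 and -0.24 in PP242 1, 2 and 3 and 0.14, -0.06 and -0.09 in DMSO 1, 2 and 3. All 18 other TOP messages lay below 0, with a median of -0.35 and 2 called (EIF2S3 and EEF1D), and array medians of -0.48, -0.51 and -0.10 in the PP242 arrays. Without PP242 3 the medians were -0.68 for ribosomal proteins and -0.48 for other TOP messages. The large-subunit gene RPL18, at 8.18, 7.94 and 8.56 with PP242 and 8.99, 8.94 and 8.77 with DMSO, was called in that setting (-0.84, adjusted p = 0.0325) but not with all arrays (-0.67, adjusted p = 0.0739). With arrays left out in turn, EIF2S3 (-1.02 to -0.78) lost its call without PP242 2, RPS7 (-0.68 to -0.57) and RPS21 (-0.99 to -0.76) without PP242 1 or 2 or DMSO 1, RPS21 also without DMSO 2, while EEF1D (-0.44 to -0.33) and RPL19 (-0.56 to -0.42) kept theirs in the fit without PP242 3 and lost it in the other 5. Ribosomal protein probe sets can cross-hybridise with the many pseudogenes of the family. The pseudogenes RPS26P11 (-0.82 ± 0.16) and RPL19P20 (-0.77 ± 0.16) were themselves called lower, and their signal cannot be separated from that of their parent genes. With 1 array left out RPS26P11 lost the call without PP242 1 or 2 or DMSO 1, and RPL19P20 except without DMSO 2.

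Total RNA bears on whether less message was present. In total RNA the ribosomal protein median was -0.29 and that of other TOP messages -0.09. EIF2S3 was at 14.61, 13.81 and 14.26 with PP242 and at 14.29, 14.25 and 14.41 with DMSO in total RNA, a change of -0.09, so its groups overlapped there. Its change on polysomes minus its change in total RNA was -0.79 ± 0.21 (adjusted p = 1). No gene passed the limma test of that difference (0 of 22384 called, 341 at an unadjusted p below 0.05, 1 called with array weights). MRPL37, a protein of the mitochondrial ribosome, was at 11.94, 11.47 and 11.91 with PP242 and at 12.85, 12.84 and 12.61 with DMSO on polysomes (-0.99 ± 0.19, adjusted p = 0.0193) and changed by -0.20 in total RNA. All 60 called genes had the same sign in total RNA as on polysomes, which holds for 69.5% of all genes. The 2 comparisons share no array but are not independent: deviations of PP242 polysome and PP242 total arrays from their group means correlated at 0.32, 0.23 and 0.60 for replicates 1, 2 and 3. With the replicate number as a block the test of the difference between fractions also called 0 genes. The 48 lower genes had a median of -0.83 on polysomes and -0.53 in total RNA. The 12 higher genes had a median of 1.0 on polysomes and 0.40 in total RNA. The genes were chosen on the polysome arrays, so their polysome values are a selected extreme and the smaller medians in total RNA are not a test of loading.

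**Figure D2:**
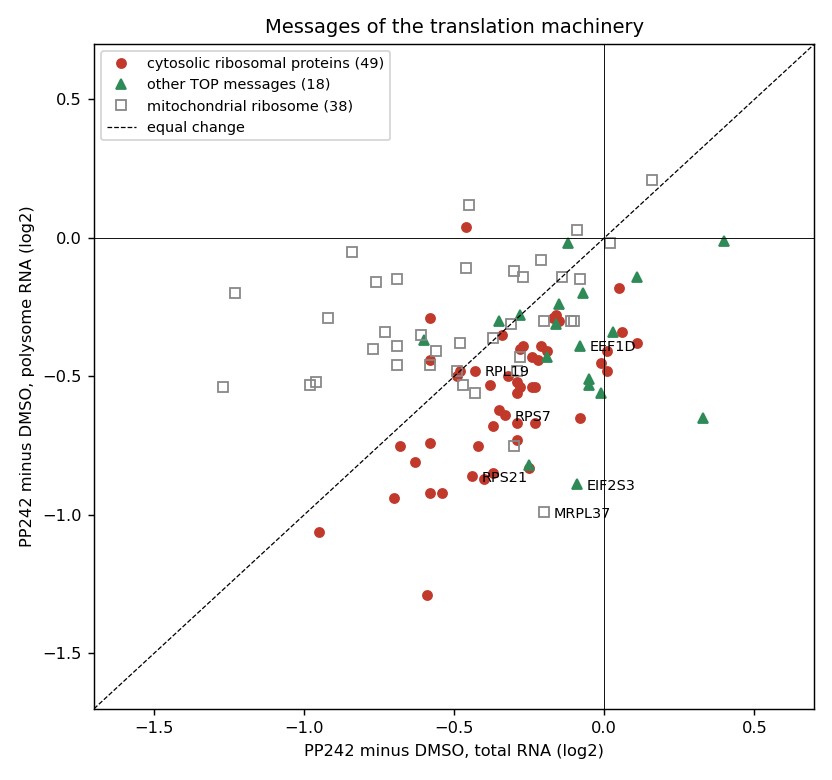
PP242 minus DMSO in total RNA (horizontal) and in polysome RNA (vertical), both as log2 differences of means of 3 arrays, for 49 cytosolic ribosomal proteins (circles), 18 other TOP messages (triangles) and 38 mitochondrial ribosomal proteins (open squares), with called genes labelled. Most circles and triangles lie below the dashed line of equal change, while most open squares lie above it.

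Of 38 measured mitochondrial ribosomal proteins 35 lay below 0 on polysomes, with a median of -0.32 (-0.30 without PP242 3), and 19 lay apart downward, against 12.2% of all genes. In total RNA the median was -0.46, further from 0 than on polysomes, whereas for the cytosolic ribosomal proteins the polysome median was the further one. The median of the difference between fractions was 0.12 for mitochondrial and -0.24 for cytosolic ribosomal proteins. This contrast of lists was not tested. Other called genes serve the mitochondrion: MALSU1, an assembly factor of its ribosome, was at 6.04, 6.03 and 6.19 with PP242 and at 6.89, 6.81 and 6.91 with DMSO (-0.78 ± 0.12, adjusted p = 0.00312) and was called with each array left out. MRPL43 (-0.53 ± 0.10), FASTKD3 (-0.49 ± 0.11), which acts on mitochondrial RNA, and ATP23 (-0.65 ± 0.11), a protease that helps assemble ATP synthase, also fell. With 1 array left out, MRPL37 (-1.08 to -0.84) lost the call without PP242 2 or DMSO 1 or 2, ATP23 without PP242 1 or 2 or DMSO 1, MRPL43 also without DMSO 2, and FASTKD3 every time. The 40 respiratory chain subunits had 26 below 0, a median of -0.11 and 0 called. Their median was 0.01 under quantile normalization.

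The rises included several kinases and signalling proteins. PIM1, a serine/threonine kinase that supports survival and can phosphorylate some AKT substrates, was at 12.50, 12.56 and 13 in PP242 arrays and at 10.71, 11.08 and 10.82 in DMSO arrays. It was 3.52-fold higher (1.82 ± 0.37, adjusted p = 0.0268). Its relative PIM3 was at 8.54, 9.25 and 9.21 with PP242 and at 7.93, 8.01 and 7.78 with DMSO (1.09 ± 0.21, adjusted p = 0.0146). LIF, a cytokine of the IL6 family that signals through STAT3, was at 9.64, 9.51 and 11.14 with PP242 and at 7.41, 7.26 and 6.22 with DMSO, 3.13 ± 0.76, and missed the threshold (adjusted p = 0.0791). Without PP242 3 the change of LIF was 2.61 (adjusted p = 0.341), and without the 8 arrays that stand apart it passed (adjusted p = 0.04). STAT3 itself read 11.27, 11.23 and 10.51 with PP242 and 10.85, 11.17 and 10.98 with DMSO. Of the 21 measured genes of the LIF, STAT3 and PIM list 15 lay above 0, and the median was 0.09 (0.16 without PP242 3). In that list 2 were called higher, as were 0.0536% of all genes, and 0 lower. Neither PIM1 (1.66, adjusted p = 0.152) nor PIM3 (0.99, adjusted p = 0.0964) was called without PP242 3. PIM1 (1.66 to 1.92) lost the call with any array left out, and PIM3 (0.96 to 1.32) without PP242 2 or 3 or DMSO 1 or 3.

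Of the 12 rises only HBP1 was called with each array left out. HBP1 is a repressor of cell cycle genes that FOXO factors induce, and it was at 9.39, 9.59 and 9.69 with PP242 and at 7.74, 8.01 and 8.01 with DMSO. It was 3.11-fold higher (1.64 ± 0.25, adjusted p = 0.00312), at 1.57 without PP242 3, and ranged from 1.55 to 1.72 with 1 array left out. Its promoter window held GTAAACA, the sequence that FOXO factors bind, shown in capitals (GRCh38.p14, chr7:107168804-107168862, plus strand) and beginning at position -173 from the annotated start.
HBP1: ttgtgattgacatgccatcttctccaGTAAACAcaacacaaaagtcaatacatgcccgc
The same letters, on either strand, occurred in 3.41% of all promoters, in 6 of 25 genes of the FOXO list with a promoter, in 1 of 12 called-higher genes and in 1 of 40 called-lower genes (ZNF532). The FOXO list was drawn from known targets, so its share is no independent evidence. Of the other letters searched, the STAT pattern occurred in 5 of the 40 called-lower promoters, against 7.88% of all promoters, and in 0 of the 12 called-higher ones. The CREB pattern occurred in 2 of the 40 (DLX6 and SKIL), against 1.98% of all promoters. E2F letters occurred in MRPL37 and ATG2A (1.18% of all) and NF-kB letters in FOXI1 (0.366% of all).

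Of 30 measured genes in the list of FOXO targets and receptor feedback, 24 lay above 0, with a median of 0.32 (0.20 without PP242 3), and 10 lay apart upward, against 8.69% of all genes. HBP1 was the one member called. The ubiquitin ligase adaptor KLHL24 was at 7.65, 8.18 and 8.19 with PP242 and at 6.57, 7.0 and 6.91 with DMSO (1.18 ± 0.27, adjusted p = 0.0635). Without PP242 3 its change was 1.09 (adjusted p = 0.252), and without the 8 arrays that stand apart it passed (adjusted p = 0.0455). The cyclin CCNG2 was at 6.56, 6.61 and 6.46 with PP242 and at 6.0, 6.17 and 5.90 with DMSO (0.52 ± 0.13, adjusted p = 0.0791). SESN1, which restrains mTOR complex 1, lay on the other side, at 5.00, 4.88 and 4.88 with PP242 and 5.19, 5.28 and 5.52 with DMSO (-0.41 ± 0.11, adjusted p = 0.109). The receptor genes INSR (-0.07) and ERBB3 (0.04) lay near 0.

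IRAK2, which relays signals of the interleukin-1 receptor, was at 7.59, 8.0 and 7.76 with PP242 and at 6.96, 6.6 and 6.46 with DMSO (1.11 ± 0.19, adjusted p = 0.00689; 1.12 without PP242 3, called). It was the one called gene of 29 measured in the interleukin-1, Toll-like receptor and NF-kB list, where 15 lay above 0 and the median was 0.06. The chemokine CXCL8 spread widely, at 13.17, 11.99 and 11.86 with PP242 and 12.10, 10.23 and 9.38 with DMSO, and the adaptor MYD88 lay lower, at 8.77, 8.28 and 8.78 with PP242 and 9.49, 9.45 and 9.03 with DMSO, both without passing (adjusted p = 0.378 and 0.338). EFNA1, the membrane ligand of the receptor EPHA2, was at 6.89, 6.97 and 6.84 with PP242 and at 6.10, 6.12 and 5.76 with DMSO (0.91 ± 0.16, adjusted p = 0.00832; 0.94 without PP242 3, called). It belongs to the ERK feedback list, of which 16 of 21 members lay above 0. That median of 0.52 rested on PP242 3: the array medians were 0.11, 0.06 and 0.85 in the PP242 arrays, and the list stood at 0.12 without PP242 3. IRAK2 (1.00 to 1.25) and EFNA1 (0.79 to 0.97) each lost the call without PP242 2 or DMSO 3.

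The remaining rises have diverse roles. LIPG, endothelial lipase, had the largest change of the 12, at 11.34, 11.33 and 11.79 with PP242 and at 9.70, 9.79 and 9.15 with DMSO (1.94 ± 0.38, adjusted p = 0.0193; 1.79 without PP242 3, not called). DMBT1, a secreted mucosal glycoprotein, was at 8.68, 9.55 and 9.22 with PP242 and at 7.67, 8.43 and 7.49 with DMSO (1.29 ± 0.25, adjusted p = 0.0165; 1.25 without PP242 3, not called). The lowest PP242 array of DMBT1 lay only slightly above the highest DMSO array. ATG2A, a lipid transfer protein of autophagosome growth, was at 6.73, 6.70 and 6.63 with PP242 and at 6.18, 6.25 and 6.13 with DMSO (0.50 ± 0.10, adjusted p = 0.0222). It was the one called gene of 33 in the lysosome and autophagy list, where 21 lay above 0 with a median of 0.08. Smaller rises were in the deacetylase HDAC9, at 5.43, 5.34 and 5.43 with PP242 and at 5.03, 4.83 and 5.13 with DMSO (0.40 ± 0.09), in the stress kinase MAP3K12, at 4.97, 5.10 and 5.12 with PP242 and at 4.70, 4.6 and 4.81 with DMSO (0.36 ± 0.08), and in the Ras association protein RASSF1 (0.39 ± 0.08). These 3 lay near the median level of all genes on these arrays. With 1 array left out, ATG2A, RASSF1 and MAP3K12 lost the call every time, HDAC9 except without DMSO 3, LIPG (1.74 to 2.06) except without DMSO 2, and DMBT1 (1.09 to 1.57) without PP242 2 or 3 or DMSO 1 or 3.

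Among the other falls, SIAH2 had the smallest p of all genes. SIAH2 is a ubiquitin ligase of the hypoxia response, and it was at 5.87, 5.93 and 6.19 with PP242 and at 7.05, 6.99 and 7.01 with DMSO (-1.02 ± 0.12, adjusted p = 7.33e-05). It was called with each array left out. PFKFB3, which makes the activator of phosphofructokinase, fell by 0.76 ± 0.16 (adjusted p = 0.0397) and lost the call with any array left out. The 32 measured glycolysis and hypoxia genes had 21 below 0 and a median of -0.13, with SIAH2 and PFKFB3 the 2 called.

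EDN2, an endothelin, was at 5.96, 5.71 and 5.54 with PP242 and at 7.07, 8.22 and 7.09 with DMSO (-1.72 ± 0.29, adjusted p = 0.00689). BDKRB1, the inducible bradykinin receptor, was at 5.85, 5.68 and 5.73 with PP242 and at 7.45, 7.50 and 6.46 with DMSO (-1.39 ± 0.29, adjusted p = 0.0329). For both genes the DMSO arrays spread more than the PP242 arrays. GUCY1A1, a subunit of the nitric oxide receptor guanylate cyclase, fell by 0.82 ± 0.17, and POMGNT2, which glycosylates alpha-dystroglycan, was at 6.15, 5.73 and 5.88 with PP242 and at 6.90, 7.07 and 6.54 with DMSO (-0.92 ± 0.19). EDN2 (-1.92 to -1.34) lost the call without PP242 2 or DMSO 2, BDKRB1 (-1.73 to -1.21) except without DMSO 3, POMGNT2 (-1.07 to -0.80) without PP242 2 or 3 or DMSO 1 or 2, and GUCY1A1 (-0.90 to -0.72) with any array left out.

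FOXI1, a forkhead factor, was at 5.46, 5.34 and 5.24 with PP242 and at 6.44, 7.02 and 6.87 with DMSO (-1.43 ± 0.29, adjusted p = 0.0219). The homeobox factor DLX1 was at 5.65, 5.62 and 5.64 with PP242 and at 6.45, 6.57 and 6.70 with DMSO (-0.94 ± 0.17, adjusted p = 0.00879), and its relative DLX6 fell by 0.54 ± 0.11. RFX7 was at 6.82, 6.68 and 6.48 with PP242 and at 7.47, 7.51 and 7.75 with DMSO (-0.92 ± 0.19, adjusted p = 0.0315). TEAD4, a DNA-binding partner of YAP (-0.84 ± 0.18), the Polycomb accessory protein MTF2 (-0.82 ± 0.14), the CCAAT-binding subunit NFYA (-0.72 ± 0.13) and the TATA-binding protein TBP (-0.64 ± 0.14) fell, as did the zinc finger proteins ZNF672 (-0.87 ± 0.14), OSR2 (-0.77 ± 0.16), ZNF532 (-0.69 ± 0.14) and ZFP64 (-0.48 ± 0.11). Adjusted p of these genes ran from 0.00583 in ZNF672 to 0.0499 in TBP. MTF2 and ZNF672 kept the call with any array left out but PP242 2, whereas RFX7, TEAD4, TBP, OSR2, ZNF532, ZFP64 and DLX6 lost it with any array left out. DLX1 (-1.0 to -0.88) lost it without PP242 2 or DMSO 3, NFYA (-0.81 to -0.60) without PP242 1 or 2 or DMSO 3, and FOXI1 (-1.60 to -1.31) except without DMSO 1.

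The other called falls were as follows. The noncoding RNA PITPNA-AS1 was at 9.05, 8.32 and 8.61 with PP242 and at 10.25, 10.37 and 9.87 with DMSO (-1.50 ± 0.28, adjusted p = 0.0121). BAG2, which modulates HSP70 chaperones, was at 9.35, 9.26 and 8.87 with PP242 and at 10.75, 10.31 and 10.78 with DMSO (-1.46 ± 0.31, adjusted p = 0.0315). ISOC1 was at 8.70, 8.69 and 8.95 with PP242 and at 9.90, 10 and 9.69 with DMSO (-1.08 ± 0.21, adjusted p = 0.0193). In none of these did the groups overlap. CDC42SE1, a small effector of the GTPase CDC42, was at 7.46, 7.18 and 7.19 with PP242 and at 8.56, 8.44 and 7.98 with DMSO (-1.05 ± 0.20, adjusted p = 0.0154). INSYN2B was at 5.55, 5.70 and 5.90 with PP242 and at 6.46, 6.81 and 6.90 with DMSO (-1.01 ± 0.22, adjusted p = 0.0397). NOPCHAP1, a chaperone in the assembly of small nucleolar ribonucleoproteins, was at 7.20, 7.01 and 7.31 with PP242 and at 8.32, 8.18 and 8.03 with DMSO (-1.0 ± 0.19, adjusted p = 0.0121). The cap-binding homologue EIF4E2 (-0.56 ± 0.12), the splicing assembly factor GEMIN6 (-0.58 ± 0.12), ASTE1 (-0.77 ± 0.17), HDHD3 (-0.74 ± 0.16), TMEM223 (-0.74 ± 0.14) and HRCT1 (-0.71 ± 0.12) complete the 48. BAG2, INSYN2B, EIF4E2 and ASTE1 lost the call with any array left out, and the others in this paragraph without PP242 2 and 1 to 4 further arrays.

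Without PP242 3 the limma fit called 32 genes (0.143% of those tested), 3 higher and 29 lower, and 27 of the 32 were among the 60. The 5 added genes were all lower. AMD1, which makes the decarboxylated donor for polyamines, was at 11.86, 11.47 and 12.77 with PP242 and at 13.33, 13.16 and 12.73 with DMSO, so PP242 3 lay within the DMSO range (-1.40 without PP242 3, -1.04 with it). The others were GFOD1 (-0.99 without PP242 3), the phosphatase subunit PPP1CC (-0.92), RPL18 and the adenosine deaminase ADA (-0.66). The count with 1 array left out ranged from 7, without PP242 2, to 32. Only ID3, PMEPA1, SKIL, SIAH2, MALSU1 and HBP1 were called in all 6 of those fits, and 19 of the 60 were called in none.

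The 8 protein-coding genes named next are the 4 in each direction in which PP242 3 differed most from the mean of PP242 1 and 2. The cyclin CCNE2 was at 11.06, 10.80 and 7.46 with PP242 and at 12.06, 11.29 and 11.79 with DMSO. DTL, a ubiquitin ligase adaptor of S phase, was at 11.19, 10.87 and 7.67 with PP242 and at 12.02, 11.74 and 12.13 with DMSO. The helicase subunit MCM6 was at 11.18, 11.60 and 8.35 with PP242 and at 11.12, 11.55 and 11.72 with DMSO. RAB3B was low in the same array as well. In the other direction the nuclear receptor NR4A3 was at 4.79, 4.32 and 8.59 with PP242 and at 4.56, 4.58 and 4.51 with DMSO, and FGFBP1, SHC4 and the autophagy protein WIPI1 were high in PP242 3 too. None of these 8 genes was called with or without PP242 3. Replicate 3 of other treated groups shared the pattern. CCNE2 was at 11.34, 11.03 and 8.03 in PP242 + IR polysome arrays, at 11.74, 11.52 and 7.91 in RAD001 polysome arrays and at 10.77, 10.27 and 7.62 in PP242 total RNA. NR4A3 was at 4.53, 4.24 and 8.12 with PP242 + IR, at 4.59, 4.68 and 8.01 with RAD001 and at 4.62, 4.35 and 8.35 with PP242 in total RNA. In the DMSO and IR polysome arrays replicate 3 did not stand off in this way, with CCNE2 at 12.04, 11.90 and 12.30 and NR4A3 at 4.53, 4.30 and 4.59 in the IR arrays.

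**Figure D3:**
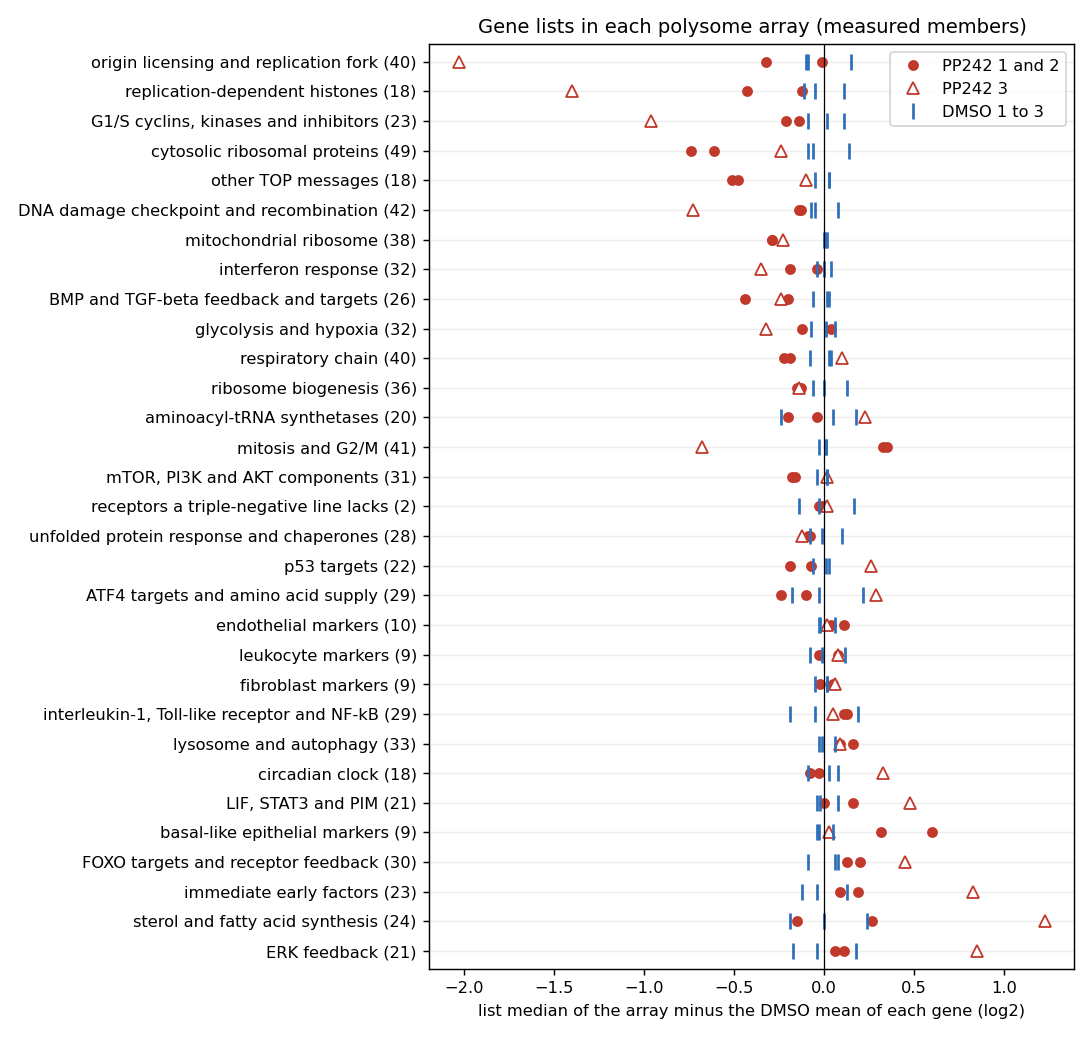
Median of each of 31 gene lists in each polysome array, relative to the DMSO mean of each gene, on a log2 axis. Circles are PP242 1 and 2, open triangles PP242 3 and vertical ticks the DMSO arrays, with the number of measured members in brackets. PP242 3 lies far left for replication, histone and G1/S genes and far right for sterol, ERK feedback and immediate early genes, while PP242 1 and 2 lie left of it for ribosomal proteins and other TOP messages.

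All 40 measured genes of origin licensing and the replication fork lay below 0, with a median of -0.89 and 0 called. Their array medians were -0.32, -0.01 and -2.03 in the PP242 arrays and the list stood at -0.13 without PP242 3. In both settings the spread held other arrays that stand apart, so a count of 0 says little for such genes. The standard error of CCNE2, for example, was 1.24 with PP242 3 and 1.32 without it. Without the 8 arrays that stand apart GINS1 of this list passed (-0.83, limma adjusted p = 0.037), while GINS2 (-1.07) and MCM6 (-0.07) did not. Histone genes of replication stood at -0.60 (-0.25 without PP242 3), G1/S cyclins, kinases and inhibitors at -0.57 (-0.12) and DNA damage checkpoint and recombination genes at -0.34 (-0.13), each with 0 called. Mitosis and G2/M genes had a median of -0.05, which was 0.28 without PP242 3 and 0.05 under quantile normalization. Of these, HMMR passed without the 8 arrays (0.88, limma adjusted p = 0.0424), while CENPE (1.08) and CDC25B (0.53) did not. Sterol and fatty acid synthesis genes stood at 0.42 (0.06 without PP242 3), with array medians of -0.15, 0.27 and 1.23, and immediate early factors at 0.40 (0.14). Lists with small medians in either setting included ribosome biogenesis (-0.10), aminoacyl-tRNA synthetases (-0.07), ATF4 targets (0.03), p53 targets (0.01), the circadian clock (0.08) and the unfolded protein response (0.00), where BAG2 was the one gene called. Without PP242 3 these 6 medians lay between -0.13 and -0.10, and the sign of all but the clock median depended on whether quantile normalization or median centring was used. The interferon list stood at -0.22 (-0.13 without PP242 3) with 0 called.

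Of 31 measured components of the mTOR, PI3K and AKT pathway 0 were called, with a median of -0.04 (0.05 under quantile normalization). MTOR was at 10.75, 10.87 and 10.99 with PP242 and at 10.29, 10.67 and 10.54 with DMSO (0.37 ± 0.26), and RPTOR of complex 1 overlapped (-0.03 ± 0.24). RICTOR of complex 2 was at 9.80, 9.53 and 9.33 with PP242 and at 8.81, 9.03 and 8.81 with DMSO (0.67 ± 0.21, adjusted p = 0.251). EIF4EBP2, which sequesters eIF4E, was at 10.69, 10.29 and 10.39 with PP242 and at 12.13, 11.66 and 11.64 with DMSO (-1.35 ± 0.34, adjusted p = 0.0997), while EIF4EBP1 overlapped (-0.14 ± 0.18). EIF4E was at 6.67, 6.38 and 6.44 with PP242 and at 7.08, 6.87 and 6.79 with DMSO (-0.42 ± 0.15, adjusted p = 0.346). FNIP1, a partner of folliculin in amino acid sensing, was at 9.89, 10.15 and 10.20 with PP242 and at 9.03, 9.0 and 9.19 with DMSO (1.01 ± 0.24, adjusted p = 0.0784). AKT1 (-0.27 ± 0.28) and RPS6KB1 (-0.12 ± 0.20) overlapped between the groups.

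The same drug was measured in cells that also received IR, on arrays that share none with the comparison above. PP242 + IR against IR called 29 genes (0.13% of those tested), 13 higher and 16 lower. Of the 60 genes 11 were also called there, which is 18.3% of the 60 and 37.9% of the 29. All 60 had the same sign, as did 66.3% of all genes, and 49 of the 60 had an unadjusted p below 0.05, against 5.71% of all genes. Both comparisons used the same estimate of each gene's spread. Genes called in the first thus tend to have a small spread and reach a low p more easily in the second. The share of all genes is therefore not a matched one. Deviations of PP242 and PP242 + IR arrays were not correlated by replicate number. Replicate 3 of both groups stood apart in the same genes, as described above, so the comparisons cannot be taken as independent. The 11 were SKIL (-1.14 ± 0.16, adjusted p = 0.0028), ID3 (-2.36 ± 0.40), SMAD7 (-1.59 ± 0.27), PMEPA1 (-1.12 ± 0.21), EIF2S3 (-0.88 ± 0.15), NFYA (-0.81 ± 0.13), HBP1 (1.54 ± 0.25), DMBT1 (1.38 ± 0.25), PIM3 (1.07 ± 0.21), IRAK2 (1.04 ± 0.19) and EFNA1 (0.93 ± 0.16). TINAGL1, a secreted matrix protein, was called with IR (1.09 ± 0.21, adjusted p = 0.0237) and just missed without it (0.93 ± 0.21, adjusted p = 0.0501), and UBQLN2, a proteasome shuttle, fell with IR (-0.94 ± 0.19). The cytosolic ribosomal protein median was -0.26 and that of other TOP messages -0.30 with IR. Mitochondrial ribosomal proteins stood at -0.10 with IR, with 13 of 38 above 0, and respiratory chain subunits at 0.09. Of the called mitochondrial genes, MRPL37 changed by -0.39, MALSU1 by -0.38, FASTKD3 by -0.31, ATP23 by -0.17 and MRPL43 by -0.05 with IR. No gene passed the limma test of the difference between the PP242 effect with IR and without it (0 called, 225 at an unadjusted p below 0.05, smallest adjusted p = 1), which does not show that the effects were equal. The count of 29 ranged from 1, without IR 3, to 15 with 1 array left out, and was 5 without PP242 + IR 3 and 11 without the 8 arrays that stand apart across the series. With those 8 left out of the IR comparison all 60 genes still had the sign they had against DMSO, as did 63.7% of all genes.

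**Figure D4:**
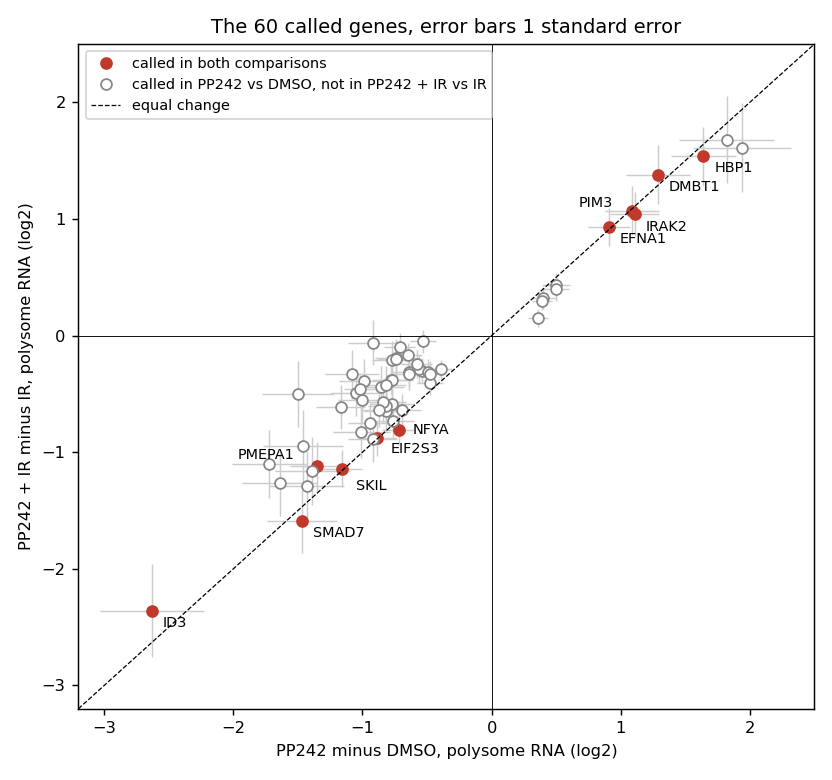
PP242 minus DMSO (horizontal) and PP242 + IR minus IR (vertical), both as log2 differences in polysome RNA with 1 standard error, for the 60 called genes. Filled points are the 11 genes called in both, and all 60 points lie in the quadrants of equal sign.

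RAD001 blocks complex 1 in part and leaves the kinase site of mTOR free, so PP242 against RAD001 sets the 2 inhibitors side by side, at doses the labels do not give. Here 6 genes were called (0.0268% of those tested), 5 lower and 1 higher with PP242. With the replicate number as a block 12 were called, 2 higher and 10 lower. SKIL was at 10.58, 10.71 and 10.82 with PP242 and at 12.09, 11.82 and 12.03 with RAD001 (-1.27 ± 0.16, adjusted p = 0.000358). PMEPA1 was at 9.17, 9.20 and 8.84 with PP242 and at 10.54, 10.42 and 9.90 with RAD001 (-1.22 ± 0.21, adjusted p = 0.0297). ID4 was at 5.26, 4.63 and 4.89 with PP242 and at 6.22, 6.03 and 5.62 with RAD001 (-1.03 ± 0.19, adjusted p = 0.0422). None of these groups overlapped. MSC, a basic helix-loop-helix repressor, was at 6.30, 5.83 and 6.33 with PP242 and at 8.20, 8.10 and 7.93 with RAD001 (-1.92 ± 0.35, adjusted p = 0.0422), against 8.02, 7.98 and 6.78 with DMSO. EIF2S3 was at 13.55, 13.40 and 13.88 with PP242 and at 14.51, 14.41 and 14.42 with RAD001 (-0.83 ± 0.15, adjusted p = 0.0422). RASSF1 was at 5.14, 5.08 and 5.28 with PP242 and at 4.68, 4.61 and 4.83 with RAD001 (0.46 ± 0.08, adjusted p = 0.0297). For the TOP start of EIF2S3 printed above, the change against DMSO was -0.89 with PP242 and -0.05 with RAD001; both comparisons share the DMSO arrays. Ribosomal proteins had a median of -0.53 with PP242 and -0.28 with RAD001 against the same DMSO arrays, and other TOP messages -0.35 and -0.04. These list medians were not tested against each other. The count of 6 ranged from 1, without PP242 2 or RAD001 1 or 2, to 6 with 1 array left out, and quantile normalization gave 2 higher and 2 lower.

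**Figure D5:**
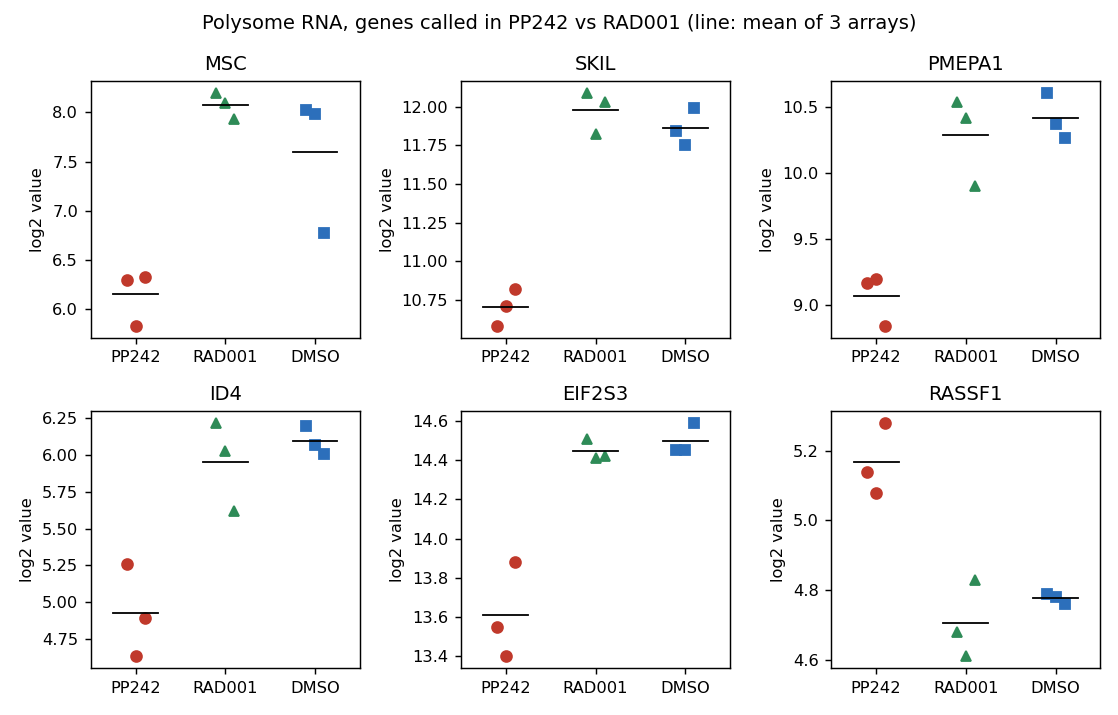
Deposited log2 values of the 6 genes called in PP242 against RAD001, in polysome RNA, with 1 point per array, 3 arrays per group, and a line at each mean (axes do not start at 0). The PP242 points lie apart from the RAD001 points in each panel, and the RAD001 points lie near the DMSO points in SKIL, EIF2S3 and RASSF1.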

How the data were processed

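The 35 arrays are of the SUM149 line, with groups taken from the titles. The authors deposited log2 values for 65029 probe sets. The scale was inferred from the values (1.85 to 19.9), and the background correction, normalization and annotation build were not stated in any source used here. The platform annotation gave 23077 probe sets 1 symbol, 1357 several and 40595 none. The probe set with the highest mean over all arrays was kept for each symbol, which left 22384 genes. The number of arrays limits the precision. In R 4.3.3, the lmFit and eBayes functions of limma 3.58.1 fitted 12 group means to all 35 arrays, with 23 residual and 2.69 prior degrees of freedom, and p-values were adjusted by Benjamini-Hochberg over all genes. The fit was also run on simulated data with independent noise around each gene mean. Those data lacked the shared replicate 3 pattern, so that run does not bear on how reliable the counts are here. Deviations from group means were correlated between arrays of the same replicate number. The values were 0.53, 0.57 and 0.81 for PP242 and RAD001 polysome arrays and 0.32, 0.23 and 0.60 for PP242 polysome and total arrays. They were 0.21, -0.16 and -0.14 for PP242 and DMSO. Arrays of different numbers were not compared. Replicate 3 stands apart in the PP242 and RAD001 groups, and deviations cancel out within a group. The values thus do not show that the other replicates were paired. The named genes are every called gene, list members that were called or among the 3 lowest p-values, genes called without PP242 3, the 5 largest changes each way in the other comparisons, the 4 genes each way in which PP242 3 differed most, and mTOR and ID genes. Other list members were named after their values were seen. Members, gene lists and rules were chosen with earlier results of these data known. Promoters come from RefSeq (GRCh38.p14). Letters searched, on both strands, were GTCTAGAC (SMAD), GTAAACA (FOXO), TTCNNNGAA (STAT), TTTCGCGC or TTTGGCGC (E2F), GGGACTTTC (NF-kB) and TGACGTCA (CREB), besides the TOP start on the gene's own strand. No set test was made. Alternatives were other scalings, filters, priors, array weights, subsets of arrays and a replicate block.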

Additional observations from a re-analysis of the deposited data

Results flagged for a closer look

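Probe sets without a single gene symbol were left out of the comparison of PP242 with DMSO. When all 65029 probe sets were tested in 1 limma fit, 36 passed and 8 of these carried several symbols or none in the annotation table. Of the 8, 7 were lower and 1 was higher with PP242 on polysomes, with changes from -2.06 to 0.59 on the log2 scale. They remain unnamed here.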

How the results depend on the processing

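Each value here is a count of genes called by limma. For PP242 against DMSO on polysomes, 60 as reported, the count was 1079 with array weights, 200 with polysome arrays only, 174 with the replicate block, 17 with median centring, 0 with the compared groups only, 29 at the threshold of the design text and 36 with all probe sets (an alternative added after the data were seen). It was 7 to 32 with 1 array left out. Without the 8 arrays that stand apart it was 75, with 14 higher and 61 lower, and 33 of the 60 kept the call. All 60 genes kept the call with array weights and with the replicate block, and none with the compared groups only. For PP242 + IR against IR (29) the counts were 323 with array weights, 95 with polysome arrays only, 61 with the replicate block, 44 with quantile normalization, 18 with a trended robust prior, 11 without the 8 arrays, 0 with median centring (935 at an unadjusted p below 0.05), 0 with the compared groups only (2112), and 1 to 15 with 1 array left out. For PP242 against RAD001 (6) they were 240 with array weights, 12 with the replicate block, 10 at the design-text threshold, 0 with median centring (429 at an unadjusted p below 0.05), 0 with the compared groups only (1266), and 1 to 6 with 1 array left out. The difference between fractions gave 1 with array weights and 1 at the design-text threshold, and the difference with IR gave 1 at that threshold, otherwise 0 in both. Across the alternatives, values of the called genes kept the call 544 times, lost it 414 times and changed direction 0 times. The cause of these shifts was not tested.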
